A study of Mus musculus with 43 samples.

Results

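H4R3me1 is histone H4 carrying a single methyl group on arginine 3, and the data here are the 4 wild-type CUT&Tag peak lists made with an antibody against it, of the 43 samples of the series. They were chosen by their labels: 2 lists of P7 testis (postnatal day 7) and 2 of P14 testis (postnatal day 14), with 22031 and 24193 peaks at P7 and 29030 and 32003 peaks at P14. The mice were C57BL/6J with no Prmt1 deletion and no genotype difference between the ages. Seminiferous tubules were freed of interstitial cells with collagenase, digested to single cells with trypsin and strained to remove Sertoli cells, the P7 filtrate being described by the study as nearly all germ cells, and no sort is described for them. The series also holds wild-type lists of 6 other histone marks at the same ages and wild-type RNA-seq of P7 testis and of sorted P7 spermatogonia, used below only for comparison. The P7 lists are labelled spermatogonia. The P14 lists are labelled spermatocyte in one field and spermatogonia in their titles, so they are named by age here. The study's methods speak of biological replicates in general, but the labels do not say whether the 2 lists of an age came from separate animals, so the spread between them may be technical.

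Protein arginine methyltransferases (PRMTs) add methyl groups to arginine. Most first make the monomethyl form and then add a further methyl group, asymmetric (H4R3me2a, the product of Prmt1) or symmetric (H4R3me2s, the product of Prmt5), whereas Prmt7 stops at the monomethyl form. H4R3me2a is generally found with active genes and H4R3me2s with repression. CUT&Tag cuts and tags DNA next to the bound antibody, and its transposase also favours open chromatin. In the mouse testis P7 tubules hold spermatogonia and Sertoli cells, and by P14 many germ cells have entered the meiotic prophase. CUT&Tag on a mixed suspension cannot tell more cells with a mark from more mark in each cell.

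The stretches of 150 bases below lie around the summits (the highest point of a peak) of promoter regions with different patterns of presence among the 4 lists, so that the sequences of the P7 and P14 regions can be set side by side. They were read 5′ to 3′ from the plus strand of the GRCm38.p6 genome, and capitals mark each CpG. The first 5 belong to the strongest regions held by both P14 lists and neither P7 list.
Cyhr1 (chr15:76659953-76660102): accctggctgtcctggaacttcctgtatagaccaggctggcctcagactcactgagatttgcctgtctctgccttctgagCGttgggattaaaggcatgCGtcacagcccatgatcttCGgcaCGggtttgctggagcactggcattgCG
Zranb3 (chr1:128102857-128103006): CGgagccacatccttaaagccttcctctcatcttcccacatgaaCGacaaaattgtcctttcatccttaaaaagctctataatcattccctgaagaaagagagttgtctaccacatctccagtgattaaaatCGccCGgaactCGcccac
Saysd1 (chr14:20082913-20083062): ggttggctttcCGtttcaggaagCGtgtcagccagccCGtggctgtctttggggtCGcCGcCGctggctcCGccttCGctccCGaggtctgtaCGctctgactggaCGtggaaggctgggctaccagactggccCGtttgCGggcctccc
Swsap1 (chr9:21955803-21955952): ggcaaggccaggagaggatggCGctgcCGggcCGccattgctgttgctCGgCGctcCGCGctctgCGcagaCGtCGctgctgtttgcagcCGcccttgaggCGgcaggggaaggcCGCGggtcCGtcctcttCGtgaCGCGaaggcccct
Cyp2r1 (chr7:114562740-114562889): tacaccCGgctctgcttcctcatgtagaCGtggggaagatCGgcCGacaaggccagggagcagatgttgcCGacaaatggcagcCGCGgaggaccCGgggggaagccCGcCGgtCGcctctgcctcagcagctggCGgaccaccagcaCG
The next 2 belong to the strongest regions held by both P7 lists and neither P14 list.
Fndc7 (chr3:108892074-108892223): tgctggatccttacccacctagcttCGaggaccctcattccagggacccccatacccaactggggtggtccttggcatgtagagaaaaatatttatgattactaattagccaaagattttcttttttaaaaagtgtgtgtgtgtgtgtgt
Map4k5 (chr12:69873970-69874119): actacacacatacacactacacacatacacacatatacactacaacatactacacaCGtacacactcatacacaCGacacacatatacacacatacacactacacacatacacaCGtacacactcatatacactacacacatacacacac
The next 3 belong to regions held by all 4 lists at Pcna, Ccdc191 and Cep55, which were picked by gene after their values were seen and are not the strongest of that pattern.
Pcna (chr2:132252973-132253122): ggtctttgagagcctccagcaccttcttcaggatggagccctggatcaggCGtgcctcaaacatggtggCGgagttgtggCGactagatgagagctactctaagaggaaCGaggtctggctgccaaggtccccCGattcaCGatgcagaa
Ccdc191 (chr16:43889927-43890076): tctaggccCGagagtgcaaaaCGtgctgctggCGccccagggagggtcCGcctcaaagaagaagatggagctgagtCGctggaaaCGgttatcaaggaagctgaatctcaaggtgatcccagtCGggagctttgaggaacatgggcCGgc
Cep55 (chr19:38054550-38054699): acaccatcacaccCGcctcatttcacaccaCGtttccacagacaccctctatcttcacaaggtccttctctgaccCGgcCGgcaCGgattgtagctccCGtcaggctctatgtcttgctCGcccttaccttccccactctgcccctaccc
The last is the region with the highest −log10 p of the 5 top regions in all 4 lists.
Gm10800 (chr2:98666974-98667123): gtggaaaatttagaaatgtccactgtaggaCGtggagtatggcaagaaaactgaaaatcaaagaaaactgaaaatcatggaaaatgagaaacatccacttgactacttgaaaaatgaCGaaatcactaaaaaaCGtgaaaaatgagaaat
The windows of Saysd1, Swsap1 and Cyp2r1 held 13, 18 and 13 CpGs with a GC content of 66.7%, 71.3% and 67.3%, and those of Cyhr1 and Zranb3 held 5 each. The P7-only window at Map4k5 is a broken run of CA units with 3 CpGs, and that at Fndc7 ends in a TG run and holds 1. The summits at Fndc7 and Map4k5 lie -2141 and 289 bp from the nearest protein-coding transcript start, negative values being upstream. With all 33 CUT&Tag lists merged, the regions at Fndc7 and Map4k5 held peaks of 22 and 15 lists. Both met regions found in at least 2 P14 lists of H4R3me2a and of H4R3me2s. The third P7-only region by rank, at Gm10719, is not printed, since the wider region it falls into when all CUT&Tag lists of the series are merged holds a peak of every list. The Gm10800 window has a GC content of 32.7%, and its merged region was present in all 33 CUT&Tag lists.

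The P14 lists held more peaks and slightly wider ones than the P7 lists. The median peak width was 268 and 254 bp in the P7 lists and 278 bp in each P14 list. Peaks of exactly 200 bp, the shortest width in the lists, made up 24.4% and 30.3% of the P7 lists and 21.4% and 21.1% of the P14 lists. Peaks over 1000 bp wide numbered 129 and 101 at P7 and 213 and 223 at P14. Peaks with a q of at most 0.01 (the authors' q-value from MACS2, the peak caller) numbered 2649 and 2078 at P7 and 6430 and 7413 at P14, which is 12% and 8.59% against 22.2% and 23.2% of each list. The DNA covered was 6.89 and 7.22 Mb at P7 and 9.55 and 10.6 Mb at P14. In each of these measures both P14 lists lay on the same side of both P7 lists. With 2 lists against 2 the smallest p of a two-sided exact permutation test is 0.33, and the differences in peak number (7404.5 more peaks at P14) and median width (17.0 bp) each gave an exact p of 0.33, so no age difference here can pass a threshold of 0.05 in that test. The width difference was 24 bp without P7 replicate 1 and 10 bp without P7 replicate 2. The order of the widths depended on which peaks were counted. Among peaks with a q of at most 0.01 the medians were 371 and 380 bp at P7 and 340 and 336 bp at P14.

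**Figure D1:**
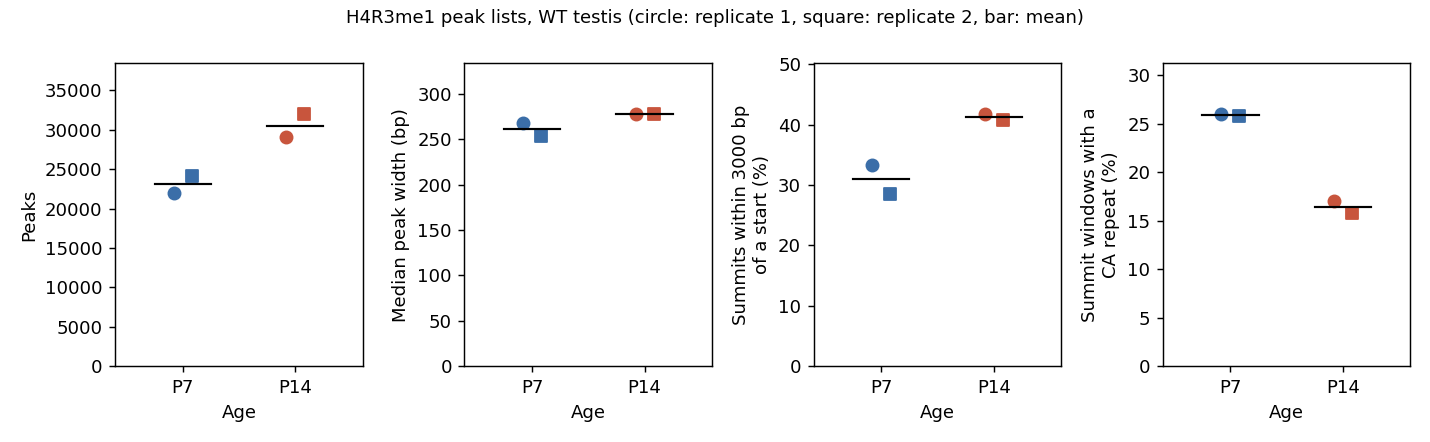
Each point is a peak list (circle, replicate 1; square, replicate 2) and each bar the mean of an age. From left to right the axes give the number of peaks, the median peak width in bp, the percent of summits within 3000 bp of a transcript start and the percent of 300-base summit windows with a CA repeat. Both P14 lists are above both P7 lists in the first 3 panels and below them in the last.

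Widths were also compared at the same places. In the 2301 merged regions that held a peak of all 4 lists, the median width was 440 and 405 bp in the P7 lists and 477 and 469 bp in the P14 lists, and the mean width of the P14 pair was the larger in 1346 regions and the smaller in 951. At the 859 of these regions that lay at a promoter and were not in every list of the series, the medians were 367 and 326 bp at P7 and 475 and 465 bp at P14, and 621 regions were wider at P14 against 237 narrower. The median fold enrichment over background at those promoter regions was 3.50 and 3.45 at P7 and 4.14 and 4.21 at P14.

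Promoters took up more of the P14 lists. A promoter here is the 3000 bp on either side of an annotated transcript start, which covers 15.1% of the genome. Promoter summits made up 33.4% and 28.6% of the P7 lists and 41.8% and 40.8% of the P14 lists, 2.22 and 1.90 times the genome's share at P7 and 2.77 and 2.71 times at P14. The difference of 10.3 percentage points gave an exact permutation p of 0.33. Introns held 34.9% and 36.8% of summits at P7 and 28.2% and 28.7% at P14, against 32.4% of the genome. Intergenic DNA held 28.2% and 31.2% at P7 and 26.8% and 27.2% at P14, against 50.3% of the genome. Other exons held between 1.52% and 1.72% of the summits of each list. The promoter share differed more among the peaks with a q of at most 0.01, at 36.4% and 29.4% in the P7 lists and 56.7% and 58.1% in the P14 lists.

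Promoter summits also lay closer to the start at P14. Among promoter summits the median distance to the nearest start was 526 and 746 bp in the P7 lists and 283 bp in both P14 lists. Summits within 500 bp of a start made up 16.3% and 11.8% of the P7 lists and 26.3% and 25.8% of the P14 lists. The share of promoter summits on the transcribed side of the start was 55.7% and 54.6% at P7 and 59.4% and 59.3% at P14.

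**Figure D2:**
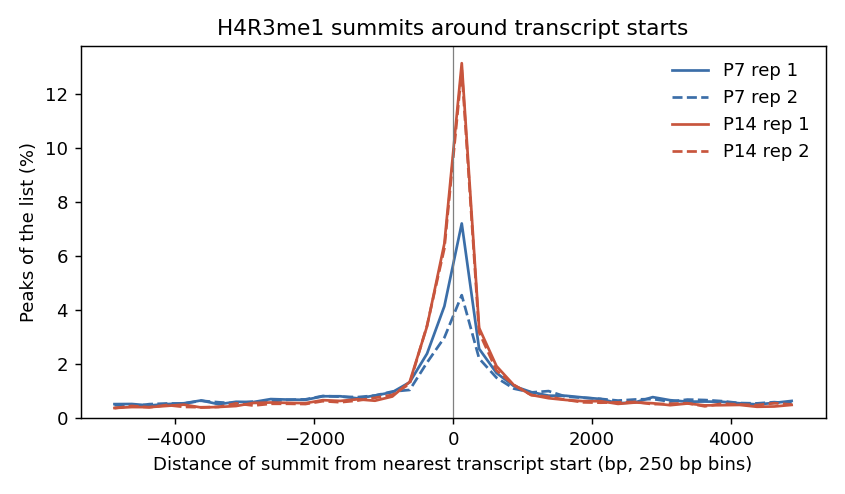
Percent of the peaks of each list (lines) in 250 bp bins of the distance from the summit to the nearest transcript start, with positive distances on the transcribed side. Both P14 lists stand above both P7 lists close to the start, and P7 replicate 1 stands above P7 replicate 2, with 16.3% and 11.8% of summits within 500 bp.

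H4R3me1 peaks were scarce on the X chromosome at both ages, as were those of the other arginine marks. The X held 115 and 170 peaks at P7 and 135 and 143 at P14, that is 0.522%, 0.703%, 0.465% and 0.447% of the lists, against 6.28% of the genome and 4.23% of the promoter windows. Set against its share of promoter windows, the X stood at 0.123, 0.166, 0.110 and 0.106 in the 4 lists, whereas the autosomes stood between 0.745 (chromosome 7 in P7 replicate 2) and 1.33 (chromosome 11 in P14 replicate 2). The wild-type H3K4me3 lists, a mark of active promoters, had 3.4% to 3.7% of their peaks on the X, and the H3K27ac lists 1.46% to 2.11%. The asymmetric arginine marks were closer to H4R3me1, with 0.593% to 0.725% for H4R3me2a, 0.489% to 0.962% for H3R2me2a and 0.708% to 0.922% for H3R8me2a. H4R3me2s had 1.336% and 1.275% at P7, nearer to H3K27ac at that age, and 0.619% to 1.03% at P14. Of 948 protein-coding genes on the X, 3 (0.316%) had a promoter summit in both P7 lists and 16 (1.69%) in both P14 lists, against 10.8% and 29.8% of all protein-coding genes, while 463 carried H3K4me3 in both P7 lists and 504 in both P14 lists. Among the 16 were Kdm6a, an H3K27 demethylase, Otud5, a deubiquitinase, and Upf3b, a factor of nonsense-mediated RNA decay, which had no summit in the P7 lists. Male cells carry a lone X beside paired autosomes, and the part of its copy number in these counts was not tested. The Y chromosome held 25 to 34 peaks in each list.

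Most peaks of a list were not found in the other list of the same age, and over all peaks recurrence was higher at P14. Of the peaks of P7 replicate 1, 20.3% overlapped a peak of P7 replicate 2 by at least 1 bp, and 18.5% of the peaks of replicate 2 overlapped replicate 1. The corresponding shares at P14 were 31.9% and 28.9%. Over merged regions, 10.6% of the P7 regions and 17.5% of the P14 regions were held by both lists. When each list was cut to the length of the shortest, these shares were 10.7% and 18.7%. Among peaks with a q of at most 0.01 they were 22.5% at P7 and 22.4% at P14, so the higher share at P14 was not seen there. Summits of a list fell into the peaks of the other replicate 57.5 and 55.8 times more often than the covered share of the genome at P7, and 64.5 and 64.1 times at P14.

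P7 replicate 1 shared more peaks with each P14 list than with P7 replicate 2. Its shares were 26.2% and 26.9% with the P14 lists against 20.3% with its own replicate, and with lists cut to the same 15361 peaks they were 23.9% and 23.4% against 20.6%. Over the whole lists P7 replicate 2 also shared more with the P14 lists, at 20.25% and 20.85%, than with its own replicate, at 18.5%. At equal length its shares were 19.4% and 18.7% with the P14 lists and 20.5% with its own replicate. The P14 lists shared 33.2% and 33.0% with each other and between 18.7% and 23.8% with the P7 lists. The P14 lists were thus closer to each other than to either P7 list, whereas P7 replicate 1 shared more with each P14 list than with its own replicate.

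The strongest peaks recurred most. Peaks were ranked by their −log10 p (the authors' p-value from the peak caller, on a scale where larger is stronger) and split into deciles. In the strongest decile, 62.1% and 59.9% of the P7 peaks and 79.3% and 76.3% of the P14 peaks were also in the other replicate, and in the weakest decile 9.80% and 7.19% at P7 and 14.1% and 11.6% at P14. The ages differed in where the strong peaks lay. In the strongest decile the promoter share was 34.4% and 30.5% at P7 and 63.7% and 66.5% at P14, and in the weakest decile it was 32.6% and 29.1% at P7 and 31.8% and 28.9% at P14. Recurrence at P14 was higher for promoter peaks (44.5% and 41.3%) than for other peaks (22.9% and 20.4%). At P7 it was close for both kinds, at 20.5% and 21.8% for promoter peaks and 20.2% and 17.2% for other peaks.

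**Figure D3:**
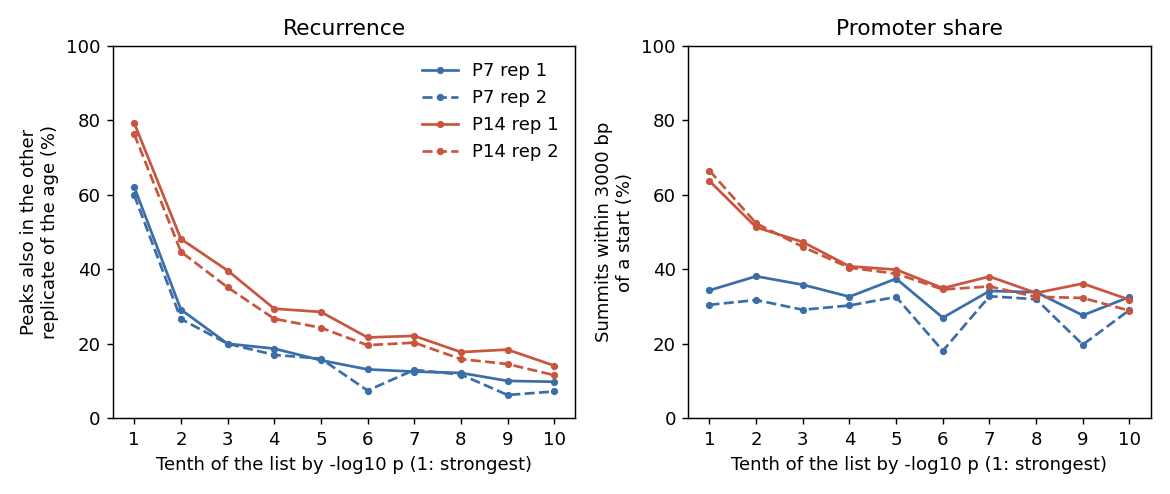
Left, the percent of peaks in each decile of a list, ranked from the strongest −log10 p, that overlap a peak of the other replicate of the same age. Right, the percent of summits within 3000 bp of a transcript start in the same deciles. The promoter share of the P14 lists is 63.7% and 66.5% in the strongest decile and lower in all others, and it stays between 18.1% and 38.1% in the P7 lists.

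The 4 lists merged into 81289 regions, of which 64957 were held by 1 list. All 4 lists held 2301 regions, both P14 lists and neither P7 list held 4087, and both P7 lists and neither P14 list held 1149. A further 2705 regions were in both P14 lists and in 1 P7 list, and 1106 in both P7 lists and in 1 P14 list. The regions held by both P14 lists only lay at promoters in 61.5% of cases, had a median GC content of 57.0% and a median of 10 CpGs in the 300 bases around the summit. The regions held by both P7 lists only lay at promoters in 25.2% of cases, with a median GC content of 47.3% and 2 CpGs. Regions in all 4 lists stood between them, with 41.9% at promoters and 3 CpGs. Of the 2301 regions in all 4 lists, 327 overlapped the 319 regions found in every CUT&Tag list of the series, whatever the antibody, and the peaks that did so made up 1.15% to 1.64% of each list.

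Recurrent P7 regions were rich in CA repeats, as in the printed window of Fndc7. The sequence CACACACA, or its reverse complement TGTGTGTG, stood in the 300 bases around the summit in 48.8% of the regions held by both P7 lists only and in 50.6% of those held by both P7 lists and 1 P14 list. It stood in 9.84% of the regions held by both P14 lists only, in 31.7% of those in all 4 lists and in 17.6% of those in 1 list, against 8.66% of all 300-base tiles of the genome. Over all peaks the share was 26.0% and 25.8% in the P7 lists and 17.0% and 15.8% in the P14 lists, with an exact permutation p of 0.33. Among peaks also present in the other replicate it was 41.2% and 40.6% at P7 and 16.4% and 16.2% at P14. The other arginine marks had shares of 12.5% to 24.7% in their P7 lists and 14.4% to 16.3% in their P14 lists, and H3K4me3 had 5.69% to 7.06% over both ages. The sequence GAGAGAGA, searched on both strands, ranged over the classes from 3.07% (both P14 lists and 1 P7 list) to 5.675% (1 list). It stood in 5.13% of the regions held by both P7 lists only and in 4.41% of those held by both P14 lists only. Without the peaks that hold the CA repeat, the recurrent share of regions was 7.90% at P7 and 16.9% at P14, and the promoter share was still 9.95 percentage points higher at P14.

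**Figure D4:**
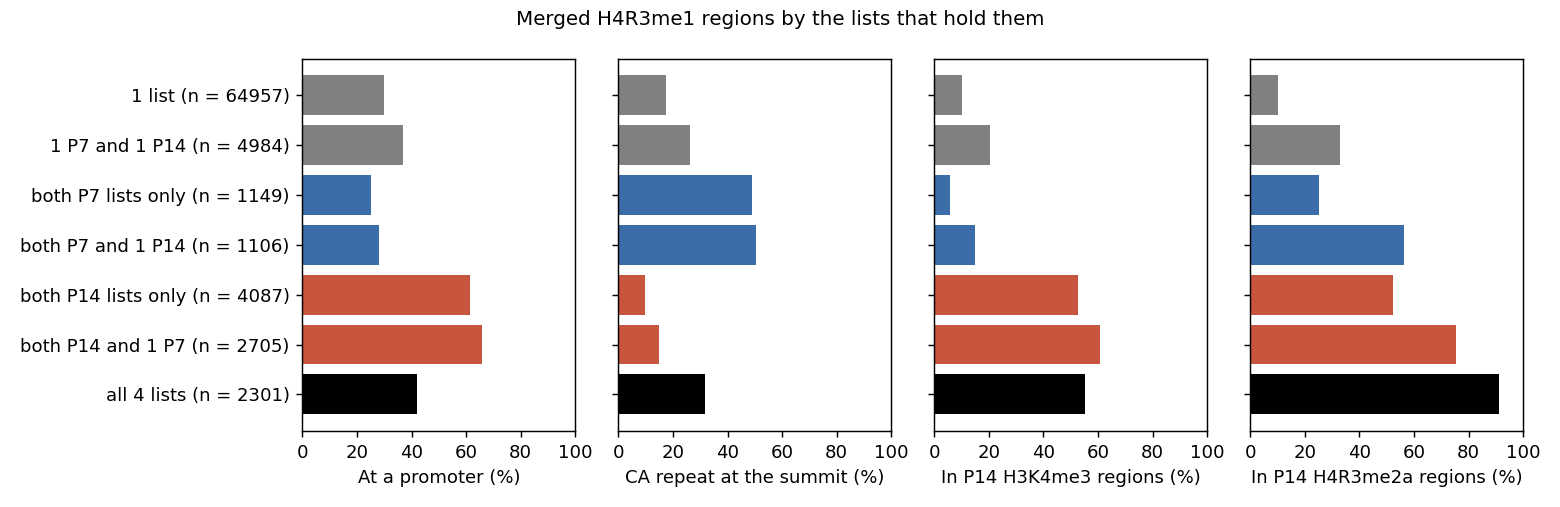
Merged regions grouped by the lists that hold them (rows, with the number of regions). The bars give the percent of regions whose summit lies at a promoter, whose 300-base summit window holds a CA repeat, and which overlap recurrent P14 H3K4me3 or P14 H4R3me2a regions. Regions recurrent at P14 only stand at 61.5% promoter and 9.84% CA repeat, and regions recurrent at P7 only at 25.2% and 48.8%.

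Promoter regions were compared with the 300-base promoters of RefSeq (GRCm38.p6), 32849 in number, which have a median of 7 CpGs. The 2514 promoter regions held by both P14 lists only (those in every list of the series left out) had a median of 20 CpGs, the 858 in all 4 lists 19 and the 289 held by both P7 lists only 3. The GC box GGGCGG, searched on both strands, stood in 45.5%, 45.9% and 11.1% of these windows, against 35.7% of RefSeq promoters. The CCAAT box, CCAAT on either strand, stood in 23.1%, 23.1% and 19%, against 37.4% of RefSeq promoters. The CA repeat stood in 4.97%, 13.8% and 37.4%, against 4.09% of RefSeq promoters. RefSeq windows are placed on the start and the others on summits, so the windows differ in position.

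At P14 more H4R3me1 summits fell on H3K4me3 regions. Summits inside regions found in both H3K4me3 lists of the same age made up 16.2% and 10.8% of the P7 lists and 27.8% and 26.4% of the P14 lists, a difference of 13.6 percentage points with an exact permutation p of 0.33. Among peaks with a q of at most 0.01 the difference was 21.3 points. Relative to the genome covered by H3K4me3, this was 25.7 and 17.1 times at P7 and 36.1 and 34.3 times at P14. The order was the same when all lists were set against the P7 H3K4me3 regions alone, which held 16.2% and 10.8% of the P7 summits and 25.3% and 24.0% of the P14 summits. For H3K27ac, a mark of active promoters and enhancers, the shares were 13.3% and 9.60% at P7 and 24.7% and 23.1% at P14, but relative to the genome it covered they were 66.7 and 48.1 times at P7 and 52.6 and 49.1 times at P14, and the ages overlap. Against the P7 H3K27ac regions alone 15.6% and 14.5% of the P14 summits fell inside.

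For the other arginine marks the order of the ages depended on the regions used. Regions in at least 2 H4R3me2a lists of the same age held 12.7% and 10.8% of the H4R3me1 summits at P7 and 30.4% and 28.6% at P14, a difference of 17.8 percentage points with an exact permutation p of 0.33. Among peaks with a q of at most 0.01 the shares were 49.2% and 54.2% at P7 and 63.2% and 60.5% at P14, a smaller difference of 10.1 points. The regions covered 0.111% of the genome at P7 and 0.431% at P14, so the shares were 114 and 96.7 times the covered genome at P7 and 70.6 and 66.5 times at P14. Set against the P7 H4R3me2a regions alone, 12.7% and 10.8% of P7 summits and 10.2% and 9.14% of P14 summits fell inside. Set against the P14 H4R3me2a regions alone the order turned, with 26% and 20.3% of P7 summits and 30.4% and 28.6% of P14 summits. The share over the covered genome was also lower at P14 for H3R2me2a, at 126 and 106 times at P7 and 64.1 and 61 times at P14, and for H3R8me2a, at 136 and 118 times at P7 and 92.4 and 82.9 times at P14. The shares themselves were higher at P14. For H3R2me2a they were 7.84% and 6.59% at P7 and 30.7% and 29.3% at P14, and for H3R8me2a 9.85% and 8.53% against 19.56% and 17.55%. The symmetric mark H4R3me2s held 6.80% and 5.29% at P7 and 17.4% and 15.8% at P14, but over the genome it covered the ages overlap, at 114 and 89.2 times at P7 and 97 and 88.4 times at P14. They also overlap against its P7 regions alone, which held 6.89% and 6.16% of the P14 summits. Against its P14 regions alone the ages do not overlap, with 15.4% and 11.5% of P7 summits and 17.4% and 15.8% of P14 summits. H4R3me2s had 2 lists at P7 and 3 at P14, so presence in at least 2 lists is a looser rule at P14. Of the regions held by both P14 lists only, 31.5% met no recurrent region of H4R3me2a, H3R2me2a, H3R8me2a or H4R3me2s at P14, and 52.7% met a recurrent P14 H3K4me3 region.

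With every list cut to 15361 peaks, H4R3me1 lists shared as many or more peaks with some other marks as with each other, and fewer with H4R3me2s. At P14 the mean share was 33.1% between the H4R3me1 replicates, 36.5% with H3R2me2a, 35.6% with H3K4me3, 33.9% with H3K27ac, 33.4% with H4R3me2a, 32.6% with H3R8me2a and 26.2% with H4R3me2s. At P7 it was 20.6% between the replicates, 20.7% with H3R8me2a, 19% with H4R3me2a, 18.6% with H3K27ac, 17.5% with H3R2me2a, 15.8% with H3K4me3 and 13.4% with H4R3me2s. The order of these means was the same at each age without the regions found in every list. Only the number of peaks was made equal, not their width. Median widths of the whole lists were 689 to 853 bp for H3K4me3 and 294 to 323 bp for H3K27ac. They were 254 to 278 bp for H4R3me1 and 200 to 245 bp for H4R3me2s. Wider peaks cover more DNA, and the part of width in these shares was not tested.

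Promoter genes were counted next. A gene was called kept if a summit lay within 3000 bp of an annotated start of it in all 4 lists, gained if in both P14 lists and neither P7 list, and lost if in both P7 lists and neither P14 list. The summits of a gene in the lists did not have to lie at the same place. At the kept gene Uqcrc1 they lay 1212 and 1261 bp from a start at P7 and 25 and 74 bp at P14. Of 22028 protein-coding genes, 10.8% (2381) had a summit in both P7 lists and 29.8% (6564) in both P14 lists. Kept genes made up 7.75% (1708), gained genes 9.75% (2147) and lost genes 0.831% (183). Over all 55536 annotated genes the counts were 2196 kept, 3011 gained and 349 lost. Of the protein-coding genes with a summit in both P7 lists, 71.7% were kept, and these were 26.0% of those with a summit in both P14 lists. The words describe presence in lists: a gene below the peak threshold in 1 list is in none of the 3 classes, and 9212 protein-coding genes were in 1 to 3 lists without meeting a rule. When absence was judged by any part of a peak within 10000 bp of a start, 1637 of all genes were gained and 163 lost. Without P7 replicate 1, P7 replicate 2, P14 replicate 1 and P14 replicate 2, in that order, there were 3572, 4280, 2584 and 2494 kept genes, 5095, 4387, 6078 and 5646 gained genes, and 2046, 1722, 647 and 737 lost genes, since each rule then asks for a list less.

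By strength, the 8 kept protein-coding genes with the highest lowest −log10 p were Gm10800, Gm21738, Gm10722, Gm11168, Gm10715, Gm10801, Asmt and Miga1, and the peaks at all of them lie in regions found in every list of the series. Their values reach 194 and 197 at Gm10800 in the P7 lists and at least 194 in the P14 lists, and such values are not particular to H4R3me1. Outside those regions, a ranking made after the values were seen put Ccdc191, with 8.63 and 10.5 at P7 and 14.6 and 17.0 at P14, and its neighbour Qtrt2, a subunit of the enzyme that places queuosine in tRNA, among the first 8. Cep55, a midbody protein of cell division, had 8.81 and 9.90 at P7 and 12.2 and 11 at P14. Slc26a6, an anion exchanger, had 10.1 and 8.09 at P7 and 11.3 and 14.6 at P14. At Ccdc191 and Qtrt2, which share a peak, and at Cep55 and Slc26a6 both P14 values are above both P7 values, but the ages overlap at the others of the 8. Tatdn3 had 11.4 and 10 at P7 and 10.6 and 9.97 at P14, Ranbp10 and Tsnaxip1, which share a peak, 10.3 and 9.2 at P7 and 15 and 8.76 at P14, and Aldh4a1 8.36 and 11.4 at P7 and 16.7 and 10.9 at P14.

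The strongest gained genes had summits close to the start, between 14 and 334 bp from it. Cyhr1 and its divergent neighbour Kifc2, a kinesin, share a peak with −log10 p of 20.4 and 14.9 in the P14 lists. Saysd1 had 17.7 and 13.5, Swsap1 13.0 and 12.8, and Cyp2r1, a vitamin D 25-hydroxylase, 14.9 and 11.7. Qpctl and Snrpd2, a core protein of spliceosomal snRNPs, share a peak with 12.8 and 11.5, and Timmdc1, an assembly factor of mitochondrial complex I, had 11.2 and 15.0. The places were not new to the series: with all 33 lists merged, the regions at Cyhr1, Saysd1, Swsap1 and Cyp2r1 held peaks of 27, 29, 24 and 23 lists, and all 4 met H3K4me3 regions at P7. Lost genes were weaker. Gip, a gut hormone gene listed at 0 TPM in all wild-type P7 RNA libraries, had 8.32 and 6.46 at P7. Polr1b, a subunit of RNA polymerase I, had 6.10 and 6.64, and Sf3b6, a protein of the U2 snRNP, 5.52 and 7.77.

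More of the PRMT genes themselves had a summit in both P14 lists than in both P7 lists. Of the 9 genes, 3 had a summit in both P7 lists and 6 in both P14 lists, 33.3% against 10.8% of all protein-coding genes and 66.7% against 29.8%. By single list the counts were 7 and 3 at P7 and 9 and 6 at P14, so the ages overlap. Prmt2 and Carm1 were kept. Prmt2 had −log10 p values of 8.26 and 3.53 at P7 and 7.48 and 11.3 at P14. Carm1, which methylates H3 arginine 17, had 4.62 and 7.16 at P7 and 11 and 7.71 at P14, at a place found in every list of the series. Prmt1 had 3.47 in P7 replicate 1, no summit in P7 replicate 2, and 6.94 and 6.82 at P14. Prmt7, which makes monomethyl arginine, had 4.06 in P7 replicate 1, none in P7 replicate 2, and 7.67 and 7.20 at P14. The summit of 7.67 lay 77 bp upstream of a start, in a region at chr8:106211055-106211308 with 7.67 and 4.77 in the P14 lists and no peak in the P7 lists, and the 7.20 of P14 replicate 2 belongs to another summit 229 bp from a start. The base sequence at its summit is shown with CpGs in capitals.
Prmt7 (chr8:106211066-106211215): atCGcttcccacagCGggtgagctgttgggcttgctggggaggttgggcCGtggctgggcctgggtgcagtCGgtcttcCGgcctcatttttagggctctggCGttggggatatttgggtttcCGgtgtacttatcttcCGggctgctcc
Prmt3 and Prmt9 had the pattern of Prmt7. Prmt5, which makes the symmetric dimethyl mark, had a summit in P14 replicate 1 alone, with a −log10 p of 2.90 near the threshold of the list. Prmt6, the main enzyme of H3R2me2a, had 5.11 in P14 replicate 1 alone, and Prmt8, a gene of the brain with a mean of 0.213 TPM in the P7 testis, had 4.70 and 6.73 at P7 and 6.54 in P14 replicate 1. In P7 testis RNA the TPM (a measure of transcript abundance scaled for transcript length and library size) of Prmt1 was 631 ± 24.9 (SD, n = 3) and that of Prmt7 56.5 ± 1.57 and that of the kept gene Prmt2 45.2 ± 0.908. No PRMT gene was gained or lost by the rule.

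Genes of RNA processing and of the cell cycle stood above the background at P14, which for all protein-coding genes is 10.8% in both P7 lists, 29.8% in both P14 lists, 7.75% kept, 9.75% gained and 0.831% lost. The background includes silent genes, and of 20 broadly expressed genes 3 were in both P7 lists and 8 in both P14 lists (15% and 40%). Of 29 hnRNP and PTB genes, which package and splice pre-mRNA, 6 had a summit in both P7 lists and 22 in both P14 lists (20.7% and 75.9%), with 6 kept, 7 gained and 0 lost. Hnrnpk had −log10 p values of 5.40 and 5.29 at P7 and 7.72 and 3.89 at P14, and Hnrnph1 4.97 and 4.30 at P7 and 6.78 and 7.08 at P14. Hnrnpul2 was gained with 7.14 and 9.28. Of 13 SR splicing factors 2 were in both P7 lists and 7 in both P14 lists (15.4% and 53.8%), and Srsf11 was gained with 4.71 and 7.54. Of 31 genes of DNA replication and the mitotic cycle, 5 were in both P7 lists and 21 in both P14 lists (16.1% and 67.7%). Pcna, the sliding clamp of DNA polymerases, had 6.5 and 5.46 at P7 and 10.6 and 13.4 at P14, both P14 values being higher. Mcm7 of the replicative helicase was gained with 5.91 and 6.22, and Top2a, topoisomerase II alpha, with 6.49 and 5.78.

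These further families ranged from 3.45% to 11.8% at P7 and from 35.8% to 51.7% at P14, against 10.8% and 29.8% of all protein-coding genes, of which 7.75% were kept and 9.75% gained. Of 83 cytosolic ribosomal protein genes, 4 were in both P7 lists and 34 in both P14 lists (4.82% and 41.0%), although 80 carried H3K4me3 at P7 (as did 60.5% of all protein-coding genes), and 18 were gained, 3 kept and 0 lost. Rps25 was gained with 9.02 and 11.8. Of 67 replication-dependent histone genes, 3 were in both P7 lists and 24 in both P14 lists (4.48% and 35.8%). Hist1h1a and Hist1h3a were gained through the same summits, with 7.28 and 4.63, which lay at different places. The summit of P14 replicate 1 lay 70 bp from the Hist1h1a start, and that of P14 replicate 2 lay 51 bp from the Hist1h3a start. Of 93 nuclear genes of oxidative phosphorylation, 11 and 47 were in both lists of the age (11.8% and 50.5%), with Uqcrh of complex III kept at 5.64, 3.96, 11 and 12 in the order of the lists. Of 29 enzymes of H3K4, H3K27 and DNA methylation, 1 (Kmt2c) was in both P7 lists and 15 in both P14 lists, and Ezh1 and Suz12 of the Polycomb complex and Setd1a, an H3K4 methyltransferase, were gained.

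**Figure D5:**
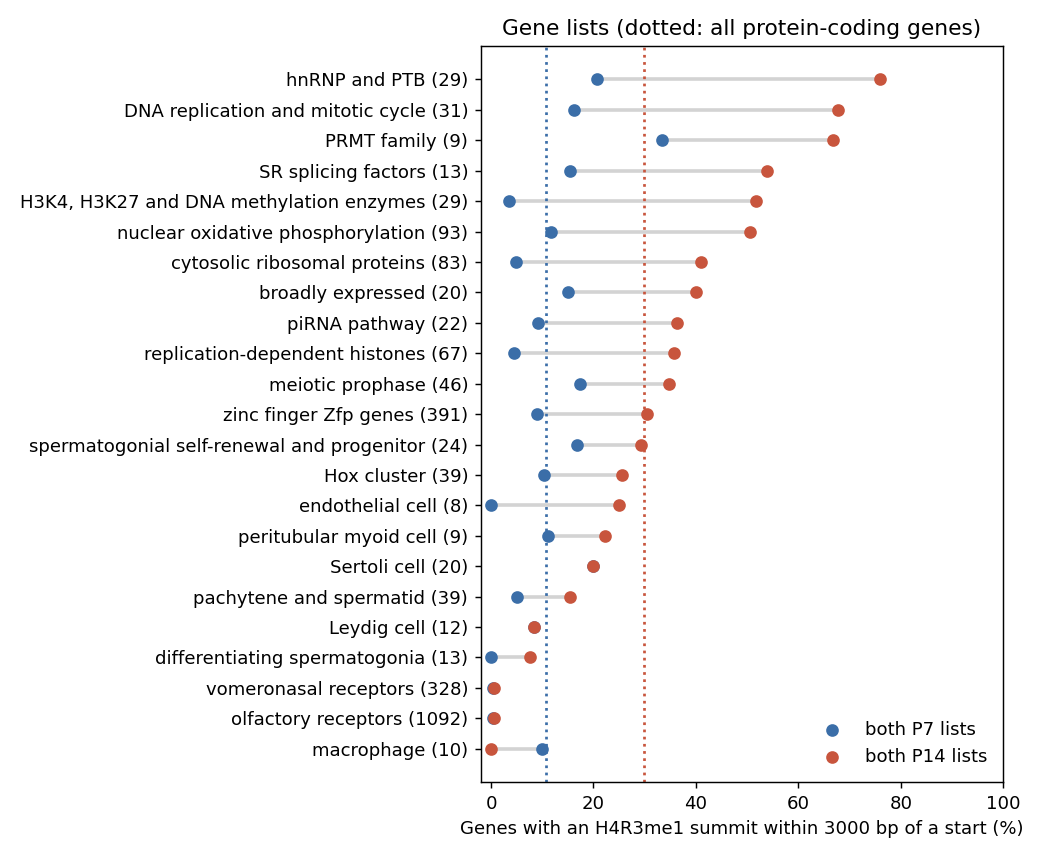
Percent of the genes of each list (number of genes in brackets) with an H4R3me1 summit within 3000 bp of a start in both P7 lists (blue) and both P14 lists (red), with dotted lines at 10.8% and 29.8% for all protein-coding genes. The hnRNP and PTB genes reach 75.9% at P14, and olfactory and vomeronasal receptor genes stay below 1% at both ages.

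Germline gene lists differed from each other at P14, from 7.69% for differentiating spermatogonia to 36.4% for the piRNA pathway, against 29.8% of all protein-coding genes, of which 7.75% were kept, 9.75% gained and 0.831% lost. Of 46 meiotic prophase genes, 8 were in both P7 lists and 16 in both P14 lists (17.4% and 34.8%, against 10.8% and 29.8%), with 6 kept, 5 gained and 2 lost. Atm, the kinase of the double strand break response, was gained with 5.11 and 5.46, and Syce3, of the synaptonemal complex, with 4.40 and 5.01. Brca2 was lost, with 4.79 and 4.55 at P7 at more than 1500 bp from a start. Sycp1, Dmc1, Tex11 and Rec8 were among 13 genes with no summit in any list, and Sycp3 and Prdm9 were in both P14 lists and 1 P7 list. Of 24 genes of spermatogonial self-renewal 4 were in both P7 lists and 7 in both P14 lists, with Foxo1, Lin28a and Id4 gained and Rarg, a retinoic acid receptor, lost. Of 13 genes of differentiating spermatogonia 0 and 1 were in both lists of the age (0% and 7.69%), Ccnd2 being the gained gene, although 12 carried H3K4me3 at each age. Of 22 piRNA pathway genes 2 and 8 were in both lists (9.09% and 36.4%), and Piwil2, Piwil4, Tdrd6 and Tdrkh were gained. Of 39 pachytene and spermatid genes 2 and 6 were in both lists, and Hspa2, a chaperone of spermatocytes, was kept with 5.87 and 2.97 at P7 and 6.36 and 9.57 at P14.

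Chemoreceptor gene families, with a median of 0 TPM in P7 testis, had next to none. Of 1092 olfactory receptor genes 4 were in both P7 lists and 6 in both P14 lists (0.366% and 0.549%), and of 328 vomeronasal receptor genes 1 and 2. Of 39 Hox genes 4 and 10 were in both lists (10.3% and 25.6% against 10.8% and 29.8%), close to the background, with 0 carrying H3K27ac at P7 and 2 at P14. Of 391 zinc finger Zfp genes 35 and 119 were in both lists (8.95% and 30.4%), also close to the background.

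Markers of other testis cells were checked in the same way, against the 10.8% and 29.8% of all protein-coding genes in both H4R3me1 lists of an age and the 60.5% and 62.9% that carried H3K4me3 at P7 and P14. Of 20 Sertoli cell genes 4 (20%) were in both H4R3me1 lists at each age, and 17 carried H3K4me3 at P7 and 16 at P14. Of 12 Leydig cell genes 1 (8.33%) was in both lists at each age, with 4 and 2 carrying H3K4me3. Of 9 peritubular myoid genes 1 and 2 were in both lists, of 8 endothelial genes 0 and 2, and of 10 macrophage genes 1 and 0, and 0 macrophage genes carried H3K4me3 at either age. For the germ cell labels, 32 of 46 meiotic prophase genes carried H3K4me3 at P7 and 45 at P14, and 21 and 44 carried H3K27ac, which 30.9% and 48.8% of all protein-coding genes carried. The part of Sertoli cells in the H4R3me1 lists was not tested here.

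The number of lists that held a gene went with its RNA level in P7 testis, as a description over genes, which are not replicates. Protein-coding genes in 0, 1, 2, 3 and 4 lists had a median TPM of 0.05, 8.87, 19.4, 24.8 and 29.4 in bulk replicate 1, with the same order in the other bulk replicates and in both Smart-seq2 libraries of sorted spermatogonia. Kept genes had a mean bulk TPM of at least 1 in 93.6% of cases, gained genes in 86.8% and lost genes in 76.5%, and genes in no list in 32.3%. Genes in more lists also had more annotated starts, with medians of 2, 4, 5, 6 and 6 transcripts, which gives more windows for a summit, and the part of this in the trend was not tested. H3K4me3 at P7 was present at 95.3% of kept, 89.2% of gained and 63.9% of lost genes, and H3K27ac at P7 at 77.9%, 52.3% and 27.9%. H4R3me2a at P7 was at 57.1%, 18.5% and 18.6%, and at P14 at 96.0%, 80.4% and 53.6%. Over all protein-coding genes H4R3me2a was at 15.3% at P7 and 48.8% at P14, and H3K4me3 at P7 at 60.5%, so gained genes mostly carried H3K4me3 at P7 already and stood near the background for H4R3me2a at that age. Among the 13022 genes with H3K4me3 at both ages 12.4% were kept, 14.5% gained and 0.875% lost, and among the 7878 with H3K4me3 at neither age the shares were 0.736%, 2.16% and 0.762%.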

How the data were processed

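CUT&Tag reads were cleaned by the authors with fastp 0.23.2 and peaks were called in each sample on its own with MACS2 2.1.0 on mm10, with a p-value threshold of 0.005 in the entry names, but a q-value threshold of 0.05 in those of H3K4me3, so H3K4me3 lists are not called alike. Aligner, control and read depth: not given in the sources used here. So neither a binomial interval nor a floor is given, and a longer list may reflect depth. The deposited lists give fold enrichment as a ratio over background, −log10 p and −log10 q for each peak. The authors mapped RNA with STAR and deposited TPM from RSEM, and 55141 of 55401 gene identifiers matched the annotation used here (GENCODE vM21, GRCm38).

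Here the 4 lists were merged, an overlap of at least 1 bp counting as shared, and summits were placed by priority as promoter (3000 bp around a start), exon, intron, downstream (300 bp) or intergenic. A mark's recurrent regions were those in at least 2 lists of an age. TPM values were used as deposited, without a test. Age differences were tested over lists with a two-sided exact permutation test. At most 7 peaks had the same coordinates in 2 lists. The interval code was tested on simulated data. Python 3.11 with pandas, numpy and pysam was used. The members and the 23 gene lists were chosen with earlier results of these data known. Named genes were all PRMT genes, up to 4 kept, gained or lost genes of each list, and the 8 kept, 8 gained and 6 lost protein-coding genes with the highest lowest −log10 p; named regions were the 5, 5 and 3 strongest promoter regions of all 4, both P14 and both P7 lists. The windows of Pcna, Ccdc191, Cep55 and Prmt7 were chosen after their values were seen. The other alternatives were a q of at most 0.01, lists of equal length, other overlap rules and promoter windows, regions in every list left out, each list left out and pairing by replicate number. Some items that these rules name are not reported here.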

Additional observations from a re-analysis of the deposited data

How the results depend on the processing

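Over 48 repeats of the 5 differences between ages under other settings, 1 changed direction: with a q of at most 0.01 the median width was lower at P14 (a difference of −37.5 bp). With the replicate number as a replicate block the differences stayed 7404.5 peaks, 17 bp and 10.3, 13.6 and 17.8 percentage points, with an exact sign-flip p of 0.5, the smallest that 2 pairs allow; the labels give no pairing, and same-numbered lists of the ages did not consistently share more peaks than differently numbered lists, so the samples were not treated as paired. With a q of at most 0.01 the recurrent share of regions was 22.5% at P7 and 22.4% at P14, regions in all 4 lists numbered 585, and kept and lost genes 220 and 36. Cutting lists to equal length gave a P14 share of 18.7%. Leaving out contigs, the mitochondrial chromosome and regions in every list gave 9.66% and 16.9%. Leaving out CA repeats (added after seeing the data) gave 7.90% and 16.9% with 1511 regions in all 4 lists. Summits within 200 bp gave 7.83% and 12.8% with 1103 regions, and an overlap of 50% of both peaks 6.11% and 9.42% with 873 regions; both count matched peaks in place of merged regions. A window of 1000 bp gave 1369 kept and 137 lost genes, protein-coding genes alone 183 lost, and absence judged within 10000 bp (added after seeing the data) 1637 gained and 163 lost. Without 1 list, regions in all remaining lists ranged from 2779 to 3943, kept genes from 2494 to 4280, gained genes from 4387 to 6078 and lost genes from 647 to 2046. Other counts stayed within 1.5 times. With 2 lists an age the exact permutation test cannot go below 0.33, and without read depth an absent peak cannot be told from an undetected peak.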

Other observations

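Several smaller features were not part of any comparison above. Regions found in every CUT&Tag list of the series held a CA repeat in 17.6% of cases and soft-masked (repeat) bases in 48.5% of their summit windows on average. In the H4R3me1 lists as a whole, soft-masked bases made up a mean of 27.3% and 29.4% of the summit windows at P7 and 18.6% and 17.5% at P14, against 36.4% of the genome. Among regions held by both P7 lists only, the mean was 45%, and among those held by both P14 lists only 11%. Sequences other than the autosomes, X and Y, which are contigs and the mitochondrial chromosome, held 158 and 177 peaks at P7 and 125 and 112 at P14. The X-linked protein-coding genes with a summit in all 4 lists were Asmt, at a place found in every list, and Mid1, and Morf4l2 was the X-linked protein-coding gene that met the rule for lost genes. The widest peaks of the lists measured 4387, 4372, 4369 and 4380 bp, in the order P7 replicates 1 and 2 and P14 replicates 1 and 2.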
